A study of Mus musculus with 27 samples.

Results

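The complement and coagulation genes are 39 mouse genes, given as a list of 40 names in which C5 and Hc stand for the same gene, and found by symbol among the 51826 gene identifiers of the deposited tables. They were followed in whole-liver RNA of mice of the inbred strain BALB/c at 7 stages of a reproductive cycle, to see how the liver changes over it. All animals were wildtype and matched for age, and each gave 1 library. The stages were nulliparous (NUL, never pregnant, 4 animals), lactation day 10 (LAC, 3), involution days 2, 4, 6 and 8, counted from weaning (ID2, 3 animals; ID4, 4; ID6, 6; and ID8, 3), and the regressed stage 4 weeks past weaning (REG, 4). Mating took place at an age of 10 to 12 weeks, litters were evened out, and weaning came at lactation day 10 to 14. The list holds 19 complement genes, 12 genes of clotting factors, 5 of clotting inhibitors and 3 of fibrinolysis, the breakdown of clots.

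Complement is a set of plasma proteins that mark microbes and dying cells and recruit leukocytes. It starts from bound antibody (the classical pathway), from sugars on a surface (the lectin pathway) or spontaneously (the alternative pathway), and all routes cleave C3 and end in a pore made by the terminal components. Clotting is a cascade of plasma proteases that ends when thrombin turns fibrinogen into fibrin, and plasmin dissolves the fibrin. Hepatocytes make most of these proteins, and several of them are known as acute phase proteins, whose genes respond to inflammation. Properdin, the product of Cfp, is mostly made by leukocytes. In whole-tissue RNA, more cells of a type and more RNA per cell cannot be told apart.

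Library totals lay between 41120650 and 75664540 estimated counts, and all 39 genes passed the filter on low counts. Levels below are CPM, counts brought to a common library total by TMM, a scaling that sets the bulk of genes equal. A change is called where edgeR's two-sided quasi-likelihood test gave an adjusted p (Benjamini-Hochberg, over the 16428 genes tested) under 0.05. Nothing in the labels names litters or cages, so p-values measure the spread between these animals. The numbers in the sample titles fell into a range under 200 (7 animals, being all 3 of ID8, 2 of 3 of ID2 and 2 of 4 of ID4) and a range of 200 and over (20 animals), which the labels do not explain, so for ID8 the range and the stage are told apart only by a term that takes the range to act alike in every stage. With that term the genes called among all 16428 went from 82 to 7 for ID8 against NUL and from 677 to 6 for ID8 against ID6. It also lowered them from 532 to 108 (0.657%) for ID2 against NUL, from 698 to 359 (2.19%) for ID4 against NUL, from 2648 to 1249 (7.6%) for ID2 against LAC, from 244 genes to 1.35% of all for ID4 against ID2, and from 1401 to 669 (4.07%) for ID6 against ID4. Library ID2_31 held 2026 CPM of 14 pancreas genes in sum and ID4_15 held 156, against at most 49.3 in every other library. Neutrophil and platelet genes were at low levels throughout, with sums of at most 8.12 and 5.63 CPM over the 8 and 4 genes that passed the filter.

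Upstream sequences are shown for 4 genes that move in different ways in the results below. C3 and Hc rose at ID4, C4bp rose in LAC, and Fgb, which encodes the beta chain of fibrinogen, was called at no stage. The sequences come from RefSeq on GRCm38.p6, run 5′ to 3′ on the strand of the gene and end before the first base that a GENCODE exon covers, and the capitals mark matches to 3 short patterns. The C3 sequence is chr17:57228137-57228386 (minus strand), the Hc sequence chr2:35061439-35061662 (minus), the C4bp sequence chr1:130661633-130661868 (minus) and the Fgb sequence chr3:83049864-83050113 (minus).
C3: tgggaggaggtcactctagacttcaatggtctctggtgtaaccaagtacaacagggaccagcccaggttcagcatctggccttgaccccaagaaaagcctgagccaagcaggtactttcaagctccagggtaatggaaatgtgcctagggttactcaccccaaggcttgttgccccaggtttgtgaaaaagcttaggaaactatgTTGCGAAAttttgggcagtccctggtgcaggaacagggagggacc
Hc: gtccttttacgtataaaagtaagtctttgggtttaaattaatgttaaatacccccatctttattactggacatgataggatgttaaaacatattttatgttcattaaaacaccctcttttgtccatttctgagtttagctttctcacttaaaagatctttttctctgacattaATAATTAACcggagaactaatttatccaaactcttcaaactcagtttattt
C4bp: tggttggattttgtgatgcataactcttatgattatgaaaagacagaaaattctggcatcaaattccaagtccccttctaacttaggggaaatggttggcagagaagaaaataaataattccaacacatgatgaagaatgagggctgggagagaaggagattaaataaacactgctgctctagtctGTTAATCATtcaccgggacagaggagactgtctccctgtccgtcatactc
Fgb: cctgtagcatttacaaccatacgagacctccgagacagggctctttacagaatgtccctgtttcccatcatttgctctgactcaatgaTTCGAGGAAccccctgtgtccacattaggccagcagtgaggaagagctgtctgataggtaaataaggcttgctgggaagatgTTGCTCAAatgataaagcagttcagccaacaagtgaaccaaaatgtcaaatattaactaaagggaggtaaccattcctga
In C3 the capitals are a match to TTGCNNAA, a pattern of the C/EBP family of liver and acute phase transcription factors. In Hc and C4bp they are matches, on either strand, to GTTAATNAT, a pattern of the hepatocyte factor HNF1. Fgb holds a match to TTCNNNGAA, a pattern of STAT3, which carries interleukin signals in the acute phase, and one to TTGCNNAA. None of the marked matches overlap.

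RefSeq promoters were found for 31 of the 39 genes, and the last 200 bases before each RefSeq start were searched on both strands. In some genes a GENCODE exon begins ahead of that start, and printed sequences end there. The HNF1 pattern occurred in 4 of the 31 (Hc, C4bp, F13b and Fga), against 0.639% of all 32851 promoters, and in 3 of them, without Fga, ahead of the GENCODE exon. The C/EBP pattern occurred in 7 of 31 (6 ahead of the GENCODE exon) and in 7.47% of all, and the STAT3 pattern in 4 of 31 and in 5.49% of all. A further hepatocyte pattern, CAAAGTCCA of HNF4, occurred in 0 of 31 and in 0.317% of all promoters. Of the 14 genes with a promoter that rose at ID4, 2 held the STAT3 pattern, 2 the C/EBP pattern and 2 the HNF1 pattern, and of the 17 that were not called there the numbers were 2, 5 and 2. These matches are descriptions of the letters and were not tested against the expression values.

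Per unit of transcript length, the most abundant of the 39 in NUL liver was Serpinc1, which encodes antithrombin, the main inhibitor of thrombin, at 5233 ± 501 TPM (the authors' length-scaled level; SD, n = 4). C3, the central complement component, followed at 3444 ± 544 TPM. The Serpinc1 level rests on a short median effective length of 558 bases and on counts that were fractional in all 27 libraries. By CPM, which is not scaled for length, Serpinc1 (2404) lay below C3 (12342), the 3 fibrinogen chains (4004 to 4715) and Plg (2792) in NUL. The fibrinogen gamma and alpha chains Fgg and Fga stood at 3373 ± 650 and 3095 ± 512 TPM, within each other's spread and that of C3. At the other end were Cfp at 24.7 ± 1.03, Pros1 (protein S, a cofactor of activated protein C) at 18.2 ± 0.495 and C6 (a terminal pore component) at 5.32 ± 0.703 TPM. Together the 39 genes took 4.96 ± 0.433% of all counts in NUL (SD, n = 4), 4.21 ± 0.171% in LAC (n = 3) and 6.23 ± 0.499% at ID4 (n = 4). The ID4 libraries lay between 5.61% and 6.69%, above every NUL library (4.41% to 5.41%). These are shares of the unscaled library total, unlike CPM, so they also move with the other genes of a library. From NUL to LAC the share of C3 went from 1.28% to 1.19% while its CPM went from 12342 to 12974. In the fit on TMM-scaled counts the median log2 fold change of the 39 genes in LAC was -0.10, and -0.01 over all genes.

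Of the 39 genes, 29 differed among the stages (joint F test of the same edgeR fit), where 27% of all genes tested did. The differing genes were 16 of 19 complement genes, 7 of 12 clotting factors, 4 of 5 clotting inhibitors and 2 of 3 fibrinolysis genes. The 10 that were not called were the terminal components C8b and C8g, the lectin pathway protease Masp1, prothrombin (F2), F10, the 3 fibrinogen chains, Serpinc1 and Vtn (vitronectin, which binds plasminogen activator inhibitor). The highest stage mean fell at ID4 for 34 of the 39 genes, where 14% of all genes tested peaked. The exceptions were C4bp (highest in LAC), Masp1, Masp2 and F11 (ID2) and C1ra (ID6). The lowest mean fell in LAC for 22 of them, against 27.3% of all genes.

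**Figure D1:**
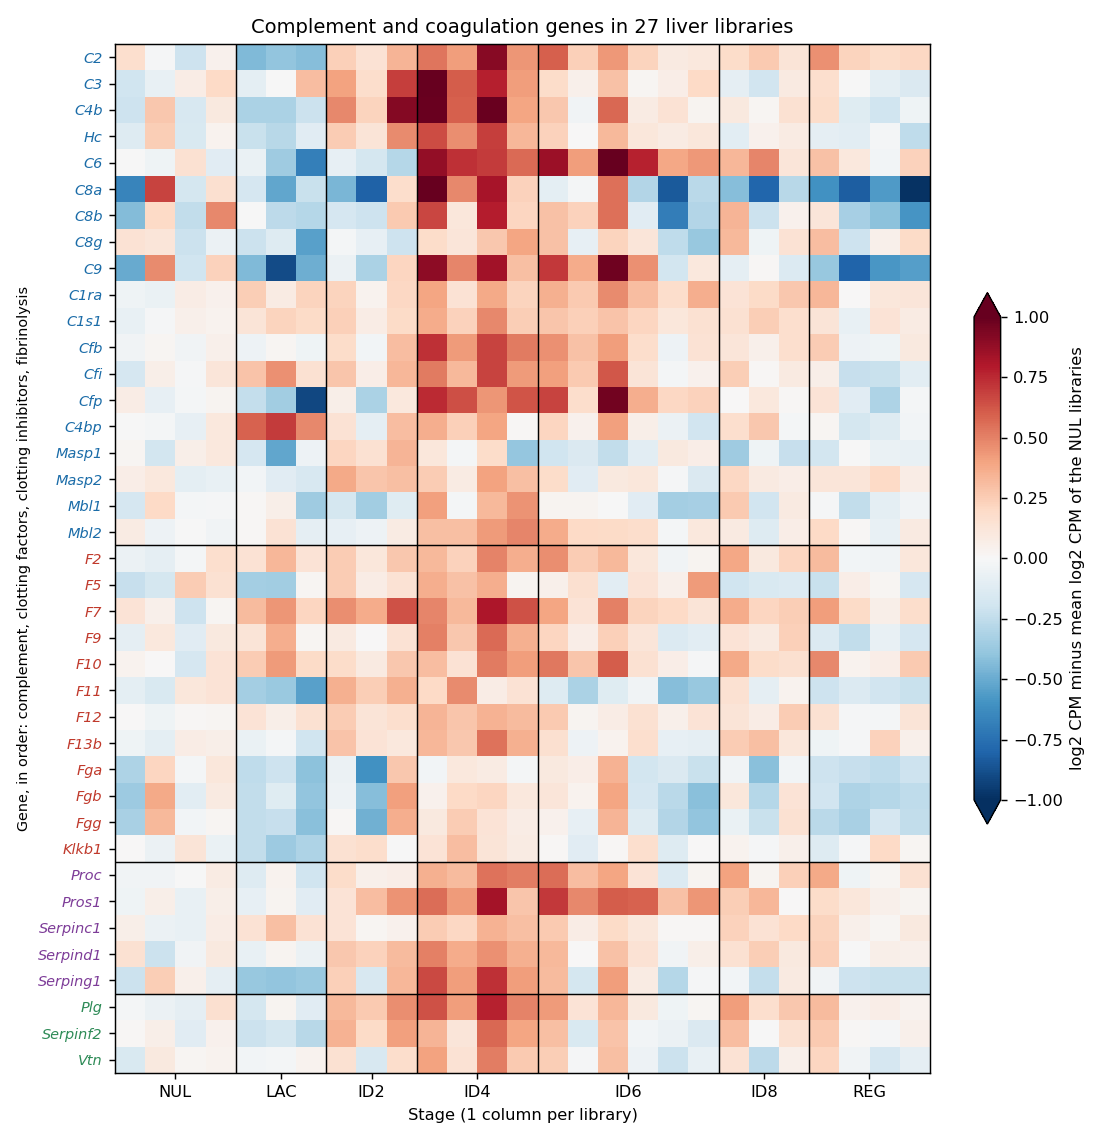
Log2 CPM of each of the 39 genes (rows, grouped by class) in each of the 27 libraries (columns, grouped by stage), minus the mean of the 4 NUL libraries; red is higher and blue lower, and the colours stop at 1 and -1. The ID4 columns are red for most rows, while the LAC columns are blue for C2, C9 and F11 and red for C4bp.

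In lactating liver 4 of the 39 genes were called against NUL, 1 higher and 3 lower, where 11.2% of all genes were called (6% lower). C4bp, which encodes the chain of C4b-binding protein, an inhibitor of the classical pathway, was the one that rose. The 3 that fell were C2, the protease of the classical and lectin pathways, and F11 and Klkb1 (prekallikrein), proteases of the contact pathway of clotting whose genes are neighbours on chromosome 8. Over the 39 genes 15 had an unadjusted p under 0.05, as did 23.6% of all genes. Among all genes called here 46.4% were higher in LAC, and 36.3% on log2(TPM + 1) in place of counts. On that scale limma called 9 of the 39, 1 higher and 8 lower, where 8.67% of all genes were called (5.53% lower), and DESeq2 called 8 where 13.2% were.

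C4bp stood at 364, 359, 345 and 391 CPM in NUL and at 549, 592 and 508 CPM in LAC. All 3 LAC libraries lay above every other library of the series, of which the highest reached 485 CPM (ID6). The log2 fold change was 0.59 (SE 0.12, 95% interval 0.35 to 0.83, adjusted p = 0.00141), and the call held without any 1 library. At ID2, C4bp was at 402, 344 and 452 CPM, which is lower than in LAC by a log2 change of -0.46 (SE 0.13, adjusted p = 0.0136).

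C2 read 112, 98.6, 86.3 and 103 CPM in NUL against 73.3, 75.6 and 73.9 CPM in LAC, with no overlap (log2 fold change -0.43, SE 0.12, adjusted p = 0.0174). That call was lost in 4 of the 7 fits that left out 1 library of these groups, with an adjusted p of 0.0613 without NUL_220. F11 read 103, 99.8, 119 and 122 CPM in NUL against 87.3, 85.4 and 76.0 CPM in LAC, again apart, with a log2 change of -0.42 (SE 0.10, adjusted p = 0.00684). Its adjusted p was 0.0515 without LAC_240. Klkb1 fell by a log2 change of -0.31 (SE 0.09, adjusted p = 0.0185; 0.0933 without LAC_213), from 246 ± 15.7 to 199 ± 8.03 CPM (SD, n = 4 and 3). The count of 4 fell to 2 without LAC_213 and to 1 without LAC_240. Other cell types' genes moved with this stage too: the 11 Kupffer cell and macrophage genes summed to 396 ± 66.2 CPM in LAC and 569 ± 53.1 in NUL, and 8 of the 11 fell. The 6 stellate cell genes summed to 183 ± 3.12 CPM in LAC and 265 ± 26.6 in NUL (3 fell), and the 7 sinusoidal endothelial genes to 245 ± 19.5 and 305 ± 17.7 (1 fell). Of 17 acute phase genes 4 fell and 0 rose, with 15 fitted below 0. The 11 hepatocyte genes went the other way in sum, from 142316 ± 12963 to 237896 ± 23517 CPM, where 1 gene, albumin (Alb), was called, at a fold of 1.97. Their part in the changes above was not tested.

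Between LAC and ID2, 13 of the 39 genes changed, 12 higher and 1 lower, where 16.1% of all genes were called and 8.48% were higher. The 12 that rose were C2, C4b, Hc, Masp1 and Masp2 among complement, F11 and Klkb1 among clotting factors, Pros1, Serpind1 and Serping1 among inhibitors, and Plg and Serpinf2 of fibrinolysis. C4bp fell. The calls of C2, C4b, Hc, Masp2, F11, Klkb1 and Serpinf2 held without any 1 library of the groups, and those of the other 6 were lost in 2 to 6 of the 6 such fits. A term for the title number range ended those of Masp1, Pros1, Serpind1 and Plg, whose log2 fold changes in that fit were 0.42, 0.33, 0.29 and 0.47. With animals numbered 200 and over, which leaves 1 ID2 library, 1 of the 13 calls was kept, that of F11 (adjusted p = 0.00677), while the genes called among all tested went from 2648 to 395 (2.27%). Between LAC and ID2, 8 of the 11 macrophage genes, 4 of the 7 sinusoidal endothelial genes, 1 of the 6 stellate cell genes and 8 of 17 acute phase genes also rose, with 0 lower in each list, and of the 11 hepatocyte genes 1 rose and 1 fell. Of the 14 pancreas genes 7 rose, and of 14 genes of the circadian clock 2 rose and 2 fell. The part of these genes' sources in the changes was not tested. The 3 genes that were lower in LAC than in NUL were all among those that rose here, and both comparisons use the same LAC libraries.

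F11 rose from 87.3, 85.4 and 76.0 CPM in LAC to 142, 131 and 141 CPM at ID2, a log2 fold change of 0.74 (SE 0.11, 95% interval 0.51 to 0.96, adjusted p = 4.95e-05). The ID2 libraries were above all 4 NUL libraries as well, although that difference was not called (log2 fold change 0.31, adjusted p = 0.0812). F11 is an exception to the later peak: ID4 stood at 127, 153, 116 and 122 CPM, and the ID6 libraries, at 82.2 to 108 with a median of 94.9 CPM, were all below ID4. C4b, the fourth component, which is cleaved by the classical and lectin pathways, rose from 1158, 1158 and 1246 CPM in LAC to 2022, 1689 and 2736 CPM at ID2 (log2 fold change 0.86, SE 0.17, adjusted p = 0.00133). C2 rose by 0.66 (SE 0.13, adjusted p = 0.000749), from 73.3, 75.6 and 73.9 to 117, 110 and 126 CPM. For these genes no ID2 library overlapped the LAC libraries.

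Against NUL, ID2 showed 3 called genes of the 39, all higher, where 2.32% of all genes were higher. Among all genes called here 71.6% were higher, and 58% on log2(TPM + 1), where 1 of the 39 was called and 2.12% of all genes. DESeq2 called 5 of the 39 and 5.71% of all genes, and with title numbers of 200 and over 0 of the 39 and 0.0632% of all genes were called. F7, the protease that starts the tissue factor pathway of clotting, rose from 151 ± 14.8 to 212 ± 19.8 CPM (log2 fold change 0.49, SE 0.11, adjusted p = 0.0116). C4b rose by 0.56 (adjusted p = 0.0482), with ID2 and NUL libraries that overlapped (lowest ID2 1689, highest NUL 1739 CPM), and Masp2, the lectin pathway protease that cleaves C4 and C2, by 0.32 (adjusted p = 0.0369). All 3 calls rested on single libraries: the largest adjusted p was 0.388 for C4b and 0.117 for F7, both without ID2_39, and 0.135 for Masp2 without ID2_224. The title number term ended that of C4b (0.295). Without ID2_39 or without NUL_226 the count was 0, and without ID2_224 or without NUL_227 it was 1. Against LAC it was 8 without ID2_39 and 8 without LAC_213. Of the 14 clock genes 6 were called against NUL (4 higher, 2 lower) and of the 14 pancreas genes 3 were called higher, and their part in these changes was not tested.

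At ID4, 21 of the 39 genes were higher than in NUL (53.8%) and 0 were lower. Of all genes tested, 2.64% were called higher and 1.61% lower. The median log2 fold change was 0.38 over the 39 genes and -0.02 over all genes, and 33 of the 39 had an unadjusted p under 0.05, as did 18.6% of all genes. The rise touched 11 of 19 complement genes, 4 of 12 clotting factors, 5 of 5 clotting inhibitors and 1 of 3 fibrinolysis genes. Among all genes called here 62.2% were higher, and 46.1% on log2(TPM + 1); on that scale 17 of the 39 genes were called, all higher, where 1.45% of all genes were higher.

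The complement genes that rose spanned all 3 starting routes. For the classical pathway these were C1ra and C1s1 (the proteases of C1), C2 and C4b, for the lectin pathway Mbl2 (a mannose-binding lectin), for the alternative pathway Cfb (factor B, its protease) and Cfp, then C3, the terminal components Hc (C5) and C6, and the regulator Cfi (factor I, which cuts C3b and C4b).

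C3 read 10692, 11684, 12914 and 14079 CPM in NUL and 24723, 18647, 20991 and 16436 CPM at ID4. The lowest ID4 library was above the highest NUL library, and the fold was 1.64 (log2 fold change 0.71, SE 0.13, 95% interval 0.44 to 0.98, adjusted p = 0.00139). In ID2 it stood at 16254, 13904 and 19848 CPM, where 2 of the 3 libraries were above all NUL libraries. C3 alone rose from 1.28% of all counts in NUL to 1.95% at ID4.

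C4b read 1252, 1739, 1295 and 1549 CPM in NUL against 2874, 2185, 2874 and 1903 CPM at ID4 (log2 fold change 0.75, SE 0.15, adjusted p = 0.00272). Its count held fractional values in 26 of the 27 libraries, as did that of its near-copy C4a. C4a, counted apart, moved alike, with 34.0 CPM in NUL and 55.9 CPM at ID4 (log2 fold change 0.72, adjusted p = 0.0014), and how shared reads were divided between genes was not tested. C2 rose to 144, 133, 187 and 135 CPM at ID4, all above the 4 NUL libraries (log2 fold change 0.59, SE 0.11, adjusted p = 0.00158). Cfb rose from 1567, 1630, 1566 and 1668 CPM to 2669, 2161, 2563 and 2298 CPM (log2 fold change 0.59, SE 0.10, adjusted p = 0.000909). Cfb and C2 lie 85 bases apart on chromosome 17 and each held fractional counts in 12 libraries. C4b, C2, Cfb and C3 all map to chromosome 17, C3 some distance away at 57203970 to 57228136.

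Among the terminal components, Hc rose from 771, 999, 755 and 860 CPM in NUL to 1323, 1162, 1360 and 1060 CPM at ID4 (log2 fold change 0.53, SE 0.10, adjusted p = 0.00194). C6 rose from 10.9, 10.6, 12.2 and 10.1 CPM to 20.1, 18.1, 17.8 and 16.2 CPM (log2 fold change 0.72, SE 0.13, adjusted p = 0.00161). C6 was low at ID2, at 10.3, 9.65 and 8.98 CPM, so its rise fell between ID2 and ID4 (log2 fold change 0.90, adjusted p = 0.000798). C8a and C9, further pore genes, varied more between the NUL animals. C8a, the alpha chain of C8, read 210.8, 533, 294 and 372 CPM within NUL alone and 838, 466, 589 and 390 CPM at ID4, so the groups overlapped and the difference of 0.70 was not called (95% interval 0.09 to 1.3, adjusted p = 0.196). C9, which forms the ring of the pore, read 73.6, 145, 91.1 and 122 CPM in NUL and 194, 147, 187 and 129 CPM at ID4 (log2 fold change 0.60, 95% interval 0.16 to 1.05, adjusted p = 0.118). C9 differed among the stages (adjusted p = 0.000705) but was called in none of the 11 comparisons, with stage means between 69.2 ± 11.4 CPM in LAC and 164 ± 31.6 at ID4.

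C8a and C8b, neighbours on chromosome 4 with 11130 bases between them, did not keep a fixed ratio: C8a over C8b ranged from 2.21 to 5.93 over the 27 libraries, with a mean of 3.84 in NUL and 4.60 at ID4. For the fibrinogen chains the range was narrower, with Fgb over Fga between 0.874 and 1.14 in all 27 libraries.

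**Figure D2:**
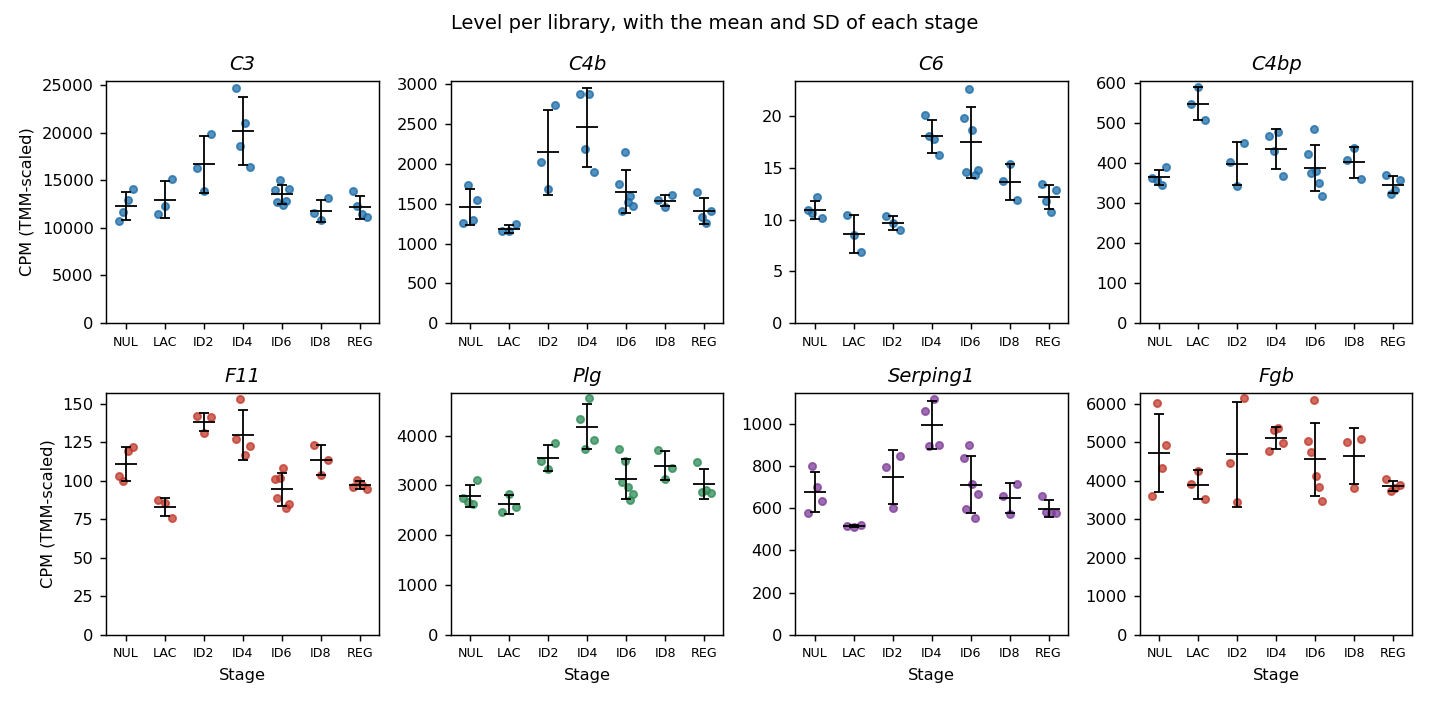
CPM of 8 genes in every library (points) by stage, with the mean (long bar) and SD (short bars); n = 4, 3, 3, 4, 6, 3 and 4 from NUL to REG. C3, C4b, Plg and Serping1 are highest at ID4, C6 is high at ID4 and ID6, F11 at ID2, C4bp in LAC, and the Fgb libraries of ID4 lie inside the range of NUL.

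Of the clotting factors, F7, F9, F12 and F13b rose at ID4. F7 read 165, 156, 130 and 152 CPM in NUL and 210, 188, 262 and 233 CPM at ID4 (log2 fold change 0.57, SE 0.10, adjusted p = 0.00138). F10, the factor that F7 activates, lies 1498 bases from F7 on chromosome 8 and went from 570 ± 49.6 to 727 ± 79.9 CPM (SD, n = 4 each); its log2 fold change of 0.35 was not called (95% interval 0.10 to 0.60, adjusted p = 0.103), although its ID4 and NUL libraries did not overlap. F9, whose loss causes haemophilia B, rose by 0.42 (adjusted p = 0.00672), and F13b, the carrier subunit of the factor that cross-links fibrin, by 0.38 (adjusted p = 0.00747). F12, which starts the contact phase, rose by 0.32 (adjusted p = 0.00525), from 238.7 to 249 CPM over the NUL libraries to 298 to 312 CPM over the ID4 libraries.

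The 3 fibrinogen chains, classical acute phase genes, were not called in any comparison. Fgb read 3609, 6014, 4318 and 4919 CPM in NUL and 4776, 5319, 5365 and 4984 CPM at ID4, so the ID4 libraries lay inside the NUL range. The log2 fold changes at ID4 were 0.12 for Fgb (95% interval -0.22 to 0.45), 0.02 for Fga (-0.27 to 0.32) and 0.12 for Fgg (-0.18 to 0.43). Each interval reaches the fitted change of F12 at its upper end. Prothrombin (F2) went from 2110 ± 176 to 2694 ± 209.5 CPM without overlap of the libraries and missed the threshold (log2 fold change 0.35, adjusted p = 0.0589), and F5, the cofactor of F10, had 0.25 (adjusted p = 0.237). Klkb1 and F11 had 0.16 and 0.23 (adjusted p = 0.265 and 0.179).

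The 5 clotting inhibitors rose at ID4. Serping1, the C1 inhibitor, which blocks C1r, C1s and the contact phase proteases, read 580, 800, 699 and 634 CPM in NUL and 1063, 898, 1120 and 901 CPM at ID4 (log2 fold change 0.55, SE 0.13, adjusted p = 0.0139). The LAC libraries were lower and close together, at 518, 512 and 521 CPM. Pros1 rose by 0.54 (SE 0.10, adjusted p = 0.00146), Proc (protein C, the protease that inactivates factors V and VIII) by 0.43 (adjusted p = 0.0304), and Serpind1 (heparin cofactor II) by 0.42 (adjusted p = 0.00582). Serpinc1 rose by 0.28 (adjusted p = 0.0456), from 2404 ± 130 to 2913 ± 126 CPM. The Serpinc1 call was lost in each of the 8 fits that left out 1 library of these groups (largest adjusted p 0.124, without NUL_221), and that of C1ra in 7 of 8 (0.129, without ID4_13). Proc was lost in 6 of 8 (largest 0.0878), Serping1 in 3 (0.0546) and Cfi in 2 (0.0641), all largest without ID4_211, and Cfp in 2 (0.0571, without ID4_13). The other 15 calls held in all 8. With a term for the title number range C1ra (adjusted p = 0.0735), Cfp (0.0739) and Serpinc1 (0.0514) missed the threshold.

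Of the fibrinolysis genes Plg, which encodes plasminogen, the precursor of plasmin, read 2755, 2670, 2623 and 3119 CPM in NUL and 4339, 3727, 4750 and 3920 CPM at ID4. No library overlapped, and the log2 fold change was 0.58 (SE 0.11, 95% interval 0.36 to 0.80, adjusted p = 0.00149). Serpinf2, the inhibitor of plasmin, had 0.36 and just missed the threshold (adjusted p = 0.0564), and Vtn had 0.33 (adjusted p = 0.108).

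With the 2 ID4 animals of title numbers 200 and over against the same NUL animals, 10 of the 21 genes were still called: C2, C3, C4b, Hc, Cfb, Mbl2, F7, F13b, Pros1 and Plg. Of all genes tested in that fit 0.598% were higher, in place of 2.64%. Their log2 fold changes there lay between 0.44 (F13b) and 0.71 (C4b and F7). The alternative was added after the data were seen.

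**Figure D3:**
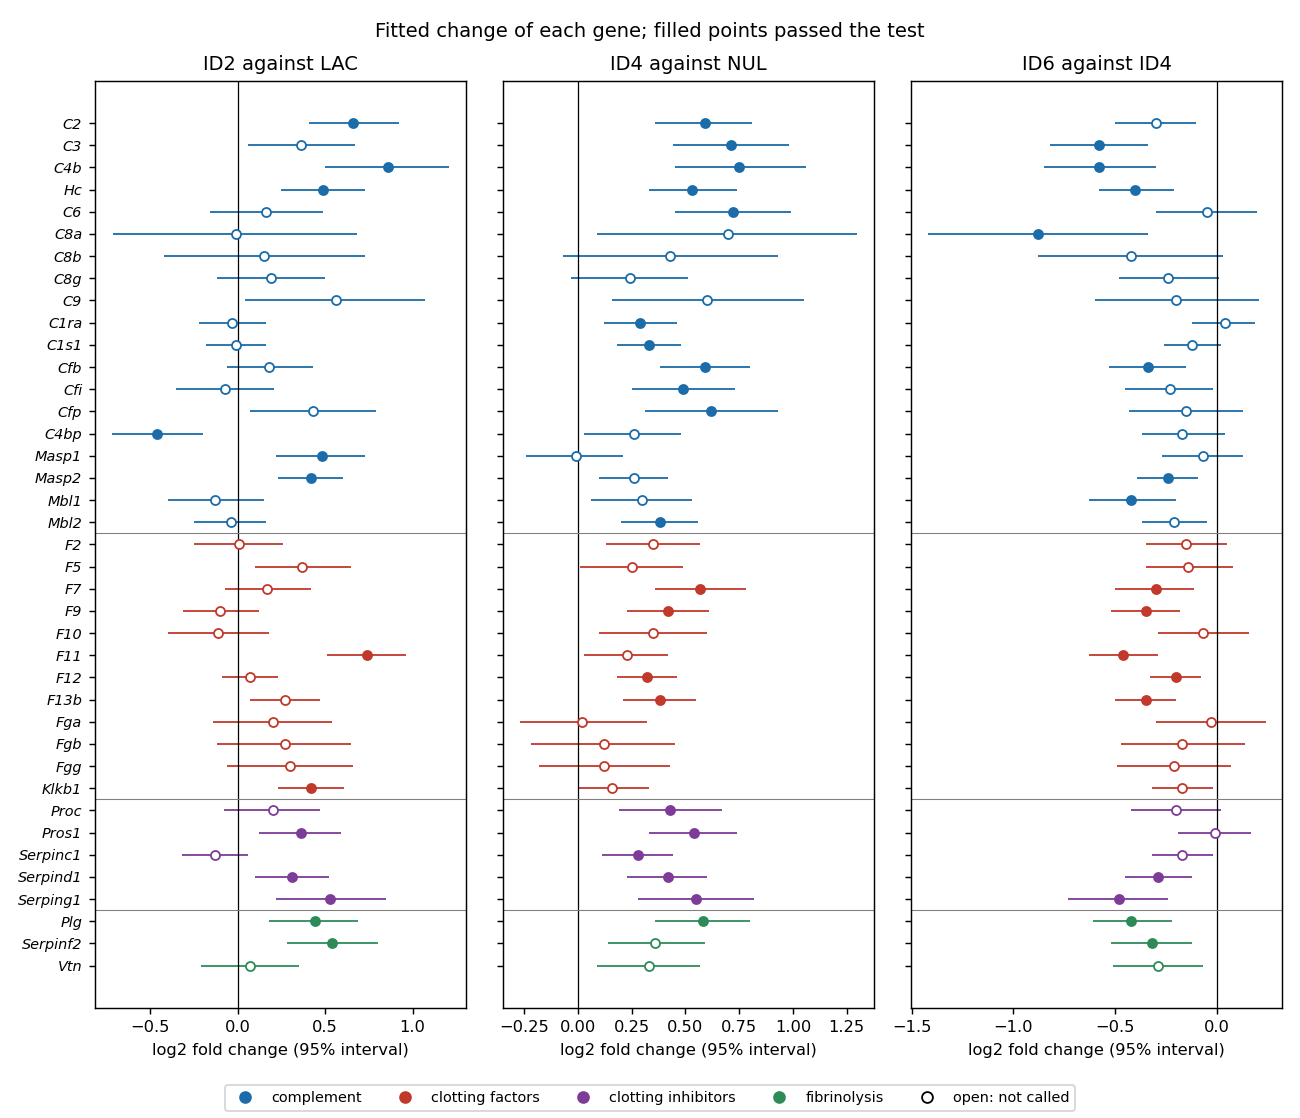
Fitted log2 fold change with its 95% interval for each of the 39 genes in ID2 against LAC, ID4 against NUL and ID6 against ID4, coloured by class; filled points passed the test and open points did not, and the 3 panels have different scales. In the middle panel all filled points lie to the right of 0, and in the right panel all lie to the left.

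From ID2 to ID4, 5 of the 39 genes rose and 0 fell, where 0.645% of all genes rose. These were C6 (log2 fold change 0.90), Cfp (0.66, adjusted p = 0.0367), Mbl1 (0.51, adjusted p = 0.032), Cfb (0.43, adjusted p = 0.0437) and Mbl2 (0.40, adjusted p = 0.0249), with no overlap of libraries in any of them. Mbl1 and Mbl2 encode the 2 mannose-binding lectins of the mouse. Mbl1 read 112, 99.4 and 116 CPM at ID2 and 167, 124, 158 and 172 CPM at ID4. The call of C6 held without any 1 library, and the count of 5 rested on single libraries: it was 1 without ID2_224, ID2_31, ID2_39 or ID4_215, and 2 without ID4_13 or ID4_211. With title numbers of 200 and over it was 0, where 8 genes of all tested (0.046%) were called. DESeq2 called 8 of the 39, all higher, and 3.66% of all genes. In the same comparison 7 of the 11 macrophage genes rose and 0 fell, and 2 of the 11 hepatocyte genes fell (Alb, log2 change -0.62, and Ass1, -0.80). Of the 17 acute phase genes 2 rose, Saa3 (log2 fold change 2.53) and Hpx (1.06), and 0 fell, with 15 fitted above 0 and 10 at an unadjusted p under 0.05. Their part was not tested.

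From ID4 to ID6, 16 of the 39 genes fell and 0 rose. Of all genes tested, 4.64% were called lower and 3.89% higher; among all genes called 45.6% were higher, and 82.2% on log2(TPM + 1), where 9 of the 39 genes fell and 0 rose and 1.8% of all genes were lower. The 16 comprised C3, C4b, Hc, C8a, Cfb, Masp2 and Mbl1 of complement, F7, F9, F11, F12 and F13b of the clotting factors, Serpind1 and Serping1 of the inhibitors, and Plg and Serpinf2. Both this comparison and ID4 against NUL use the ID4 libraries, and 11 genes were called in both. In the same comparison 10 of the 17 acute phase genes fell and 1, Hamp, rose (log2 fold change 0.94, adjusted p = 0.00187). Of the 11 macrophage genes and the 11 hepatocyte genes edgeR called 0, with 1 in each list at an unadjusted p under 0.05. Of the 14 clock genes 1 rose (Arntl, log2 fold change 0.42) and 1 fell (Tef, -0.88), with 6 at an unadjusted p under 0.05. Of all 16428 genes 3756 had such a p. The part of the acute phase genes and of the clock genes in the falls was not tested.

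C3 fell to 12432 to 15044 CPM over the 6 ID6 libraries (median 13398), below every ID4 library, with a log2 change of -0.58 (SE 0.12, adjusted p = 0.00285). C8a, with the largest change, fell to 186 to 489 CPM (median 294; log2 fold change -0.88, SE 0.26, adjusted p = 0.039), and its groups overlapped. F11 fell by a log2 change of -0.46 (SE 0.08, adjusted p = 0.00119). Plg fell by -0.42 (SE 0.10, adjusted p = 0.00812) to 2704 to 3742 CPM (median 3022), where the highest ID6 library lay above the lowest of ID4. Serping1 fell by -0.48 (SE 0.12, adjusted p = 0.0121) to 553 to 902 CPM (median 692), again with overlap. The calls of C3, C4b, Hc, F9, F11, F13b and Plg held without any 1 library of the groups. Of the other 9, F12 was lost in 8 of 10 such fits (largest adjusted p 0.101), C8a in 7 (0.185), Serpind1 in 5 (0.0957) and Cfb in 2 (0.0932), each largest without ID4_13. F7 was lost in 7 (0.202), Serpinf2 in 7 (0.184), Masp2 in 6 (0.147) and Serping1 in 1 (0.0517), each largest without ID4_211, and Mbl1 in 2 (0.0589, without ID4_215). A term for the title number range ended the calls of C4b (adjusted p = 0.0548), C8a (0.208), Cfb (0.0642), F12 (0.07) and Serpind1 (0.103). Their log2 changes in that fit were -0.52, -0.70, -0.35, -0.23 and -0.27, in the same order. On log2(TPM + 1) the change of Masp2 was -0.01 (limma adjusted p = 0.928) in place of -0.24. The count of 16 fell to 8 without ID4_13 or without ID4_211, and to 10 without ID6_209, ID6_230 or ID6_232. With animals numbered 200 and over it was 3, where 1.14% of all genes tested were lower in place of 4.64%.

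Of the genes called at ID4, 10 were not called between ID4 and ID6. C6 read 14.3 to 22.6 CPM at ID6 (median 16.7), a difference of -0.05 from ID4 (95% interval -0.30 to 0.20), and was above NUL (log2 fold change 0.67, SE 0.12, adjusted p = 0.0036). Pros1 read 50.7 to 67.7 CPM (median 60.0) and was above NUL by 0.53 (SE 0.09, adjusted p = 0.00177). C1ra was above NUL by 0.32 (SE 0.08, adjusted p = 0.0228), which missed the threshold in 4 of the 10 fits that left out 1 library (largest 0.11, without NUL_221). DESeq2 called 5 of the 39 and 3.11% of all genes between ID6 and NUL. The 3 above were the genes called by edgeR in that comparison, where 0.402% of all genes were higher (37.1% of all calls, and 65.5% on log2(TPM + 1), where 5 of the 39 and 1.22% of all genes were called), and in each of them every ID6 library was above every NUL library. Of the 11 macrophage genes 5 were also called higher at ID6 than in NUL and 0 lower, and their part was not tested.

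At ID8 and REG the 39 genes were not told apart from NUL. The edgeR test called 0 at ID8 and 0 at REG, where 0.499% and 0.0852% of all genes were called, and 8 and 5 of the 39 had an unadjusted p under 0.05, as 12.8% and 7.17% of all genes did. DESeq2 called none of the 39 in either. C8a and C9 were lowest or nearly so at REG: C8a read 219, 188, 225 and 168 CPM (log2 fold change against NUL -0.82, 95% interval -1.42 to -0.21, adjusted p = 0.471), and C9 80.5, 60.0, 69.7 and 71.3 CPM (-0.62, 95% interval -1.07 to -0.17, adjusted p = 0.458). Between ID6 and ID8, and between ID8 and REG, 0 of the 39 were called by edgeR, where 4.12% and 0.0487% of all genes were called. At an unadjusted p under 0.05 there were 7 and 3 of the 39, against 20.5% and 9.02% of all genes. DESeq2 called 1 and limma on log2(TPM + 1) called 4 between ID6 and ID8, where they called 9.16% and 5.22% of all genes. With the title number term 0 of the 39 were called in either comparison of ID8 with its neighbours or against NUL. C3 was back at 11534, 10777 and 13088 CPM at ID8 and 13824, 12249, 11459 and 11132 CPM at REG, within the spread of NUL.

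Properdin is mostly a leukocyte product, and Cfp was called in ID4 against NUL and in ID4 against ID2 and in no other comparison. It read 29.5, 26.5, 27.6 and 28.5 CPM in NUL, 23.7, 22.1 and 14.9 in LAC, 47.0, 43.8, 38 and 43.4 at ID4 and 31.7 to 54.6 (median 34.4) at ID6. The rise at ID4 had a log2 change of 0.62 (SE 0.15, adjusted p = 0.0172). It was not called with a term for the title number range (log2 change 0.60, adjusted p = 0.0739) or with title numbers of 200 and over (0.53, adjusted p = 0.232). At ID6 every library was above every NUL library, but the difference missed the threshold (log2 fold change 0.47, adjusted p = 0.0998). The summed level of the 11 Kupffer cell and macrophage genes was 569 ± 53.1 CPM in NUL (499 to 627), 841 ± 38 at ID4 (799 to 885) and 810 ± 140 at ID6 (651 to 1000), and 7 of the 11 rose at ID4. Genes of that list were also called where Cfp was not. These were 8 of the 11 in LAC against NUL (all lower), 8 in ID2 against LAC (all higher), 5 in ID6 against NUL (all higher) and 5 in ID8 against ID6 (all lower). The mean of Cfp went the same way in each, at 28.0 CPM in NUL, 20.2 in LAC, 27.3 at ID2, 38.7 at ID6 and 28.8 at ID8. Whether Cfp differed from that list was not tested. The 8 neutrophil genes, at a low level, summed to 3.4 ± 1.68 CPM in NUL (1.6 to 5.29) and 6.14 ± 1.87 at ID4 (4.43 to 8.12), with all 8 fitted above 0. By edgeR 0 of the 8 were called at ID4 against NUL and 0 against ID2, with 2 and 4 at an unadjusted p under 0.05. The part of either list in the level of Cfp was not tested.

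The summed level of 17 acute phase genes that are not among the 39 was also highest at ID4. It stood at 12295 ± 2197 CPM in NUL (10644 to 15313), 9327 ± 604 in LAC (8777 to 9974), 24633 ± 6804 at ID4 (17680 to 31936) and 15169 ± 3741 at ID6 (11288 to 21396). At ID4, 11 of the 17 rose and 1 fell, Hamp (hepcidin, which limits iron uptake; log2 change -1.03, adjusted p = 0.00194). Hpx (hemopexin, which binds heme) rose by a log2 fold change of 1.21 (adjusted p = 0.00175) and Hp (haptoglobin, which binds free haemoglobin) by 1.26 (adjusted p = 0.0172). Among the others that rose, the log2 fold change was 4.19 for Saa1 and 2.98 for Orm2, whose libraries overlapped those of NUL, and 0.87 for Itih3. The called log2 fold changes of the 39 genes at ID4 ran from 0.28 (Serpinc1) to 0.75 (C4b).

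**Figure D4:**
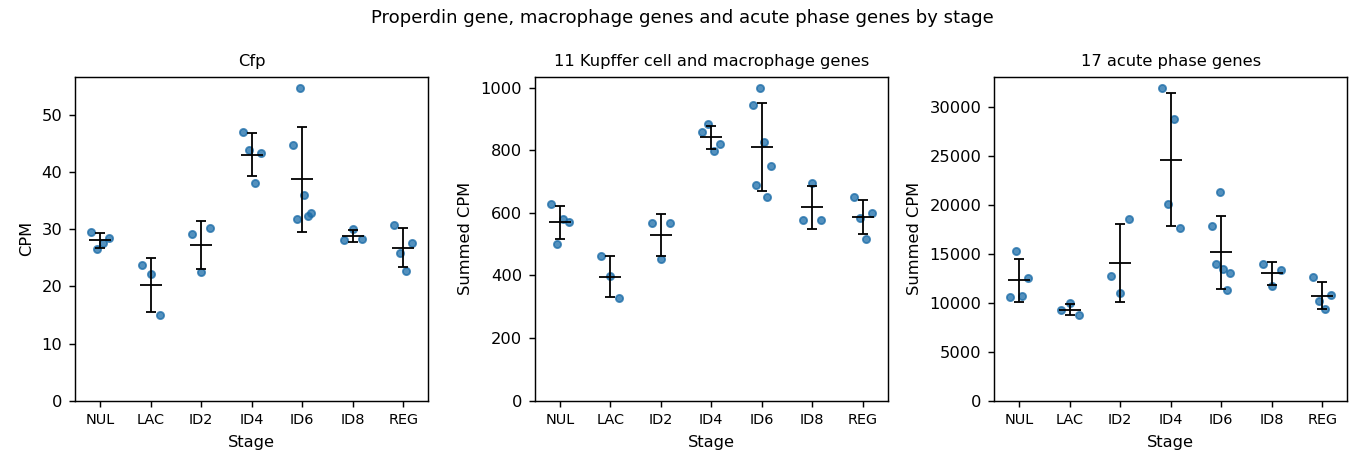
CPM of Cfp (left) and summed CPM of 11 Kupffer cell and macrophage genes (middle) and 17 acute phase genes (right) in every library by stage, with the mean and SD. In the ID4 and ID6 libraries Cfp and the macrophage sum lie above all NUL libraries, although Cfp was called only at ID4, and the mean acute phase sum is highest at ID4, with libraries from 17680 to 31936 CPM.

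Other genes of both systems were taken from lists written beside the 39. Of 30 further complement genes tested, 16 differed among the stages, and of 29 further coagulation genes 14 did, where 27% of all genes did. At ID4, 8 of the 30 complement genes rose and 0 fell against NUL, where 2.64% of all genes were higher and 1.61% lower. They included Clu (clusterin, which blocks the terminal pore; log2 fold change 0.60, adjusted p = 0.00221) and Cpn2 (a subunit of carboxypeptidase N, which trims C3a and C5a; 0.50, adjusted p = 0.0033). Of the 29 coagulation genes 5 rose and 1 fell in that comparison. Hrg (histidine-rich glycoprotein, which binds heparin and plasminogen) rose by 0.66 (adjusted p = 0.000176), Kng1 (kininogen, the cofactor of the contact phase) by 0.47 (adjusted p = 0.0069) and Cpb2 (which protects fibrin from plasmin) by 0.48 (adjusted p = 0.0114). Kng1 and its near-copy Kng2 both held fractional counts in all 27 libraries.

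In LAC, 10 of the 30 further complement genes were lower than in NUL and 0 higher, where 6% of all genes were lower. C1qa, C1qb and C1qc, which encode the recognition unit of the classical pathway and are made by macrophages, were among them, with C1qa at 48.7 CPM in NUL and 32.8 CPM in LAC (log2 fold change -0.57, adjusted p = 0.000963). These 3 and Vsig4, a complement receptor of Kupffer cells (log2 fold change -0.67, adjusted p = 0.00128), are also among the 11 macrophage genes above, so 4 of the 10 stand in both lists. Of the 8 that rose at ID4, 1 (C1qa, adjusted p = 0.0233) does.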

How the data were processed

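RNA was measured in 27 whole livers. Per the labels' protocols, frozen livers were pulverised, Trizol was used for RNA and the NEBNext Ultra RNA kit for libraries; 16 libraries had 2 runs and 11 had 1. The submitters' processing notes name STAR 2.6.1a, RSEM 1.3.1 and the builds mm10 and GRCm38, without roles. Annotation, trimming and use of strand are not given in the sources used here, so overlapping genes on opposite strands cannot be told apart. The expected counts are the authors' estimates of reads per gene, per the file headers, with no scaling between libraries. The deposited TPM values, per the file headers, are scaled for transcript length. Library totals bound the precision, and intervals cover the spread between animals.

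Symbols and positions come from GENCODE release M21 (GRCm38) by identifier; 193 of 51826 identifiers were not found there. Members and lists were chosen with earlier results of these data known. Expected counts were rounded and fitted in R 4.3.3 with edgeR 4.0.16 (filterByExpr, TMM, glmQLFit with robust estimation, glmQLFTest), all 27 libraries in 1 fit with 7 groups from the titles, for 11 comparisons and a joint F test. Common dispersion was 0.036. No 2 libraries of a group agreed within sampling noise (smallest chi-square per gene 41.3). The rule for named genes gave in full the 12 members with the largest range of stage means among those that differed, and in each comparison the members called; further genes of the 2 pathways, markers and F10, Fga, Fgb, Fgg and other members not called were named outside it. Alternatives were other size factors, DESeq2 1.42.0, no filter, limma 3.58.1 on log2(TPM + 1), a title number covariate and leaving out each library. The fit was tested on simulated data.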

Additional observations from a re-analysis of the deposited data

Results flagged for a closer look

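In 48 groups of a gene and a stage with at least 4 libraries, 1 library stood apart from the others (Dixon's ratio over the 95% critical value) in 3, and chance gives about 1 in 20. All 3 were the same library, REG_203, at the highest level of the regressed group. C2 stood at 136 CPM there and at 113 to 116 in the other 3 libraries. Serping1 stood at 657 CPM there and at 577 to 584 in the others. Plg stood at 3475 CPM there and at 2857 to 2910 in the others.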

How the results depend on the processing

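No paired analysis was possible because no title number occurs in more than 1 group. The number of the 39 genes that differed among the stages stayed within 1.5 times of 29 in every alternative, and was 24 to 30 without 1 library. Without 1 library the genes called numbered 1 to 5 for LAC against NUL, 0 to 3 for ID2, 16 to 24 for ID4, 2 to 3 for ID6, 0 to 0 for ID8 and 0 to 0 for REG. The corresponding ranges were 8 to 15 for ID2 against LAC, 1 to 5 for ID4 against ID2, 8 to 18 for ID6 against ID4, 0 to 1 for ID8 against ID6 and 0 to 0 for REG against ID8. The genes with their highest mean at ID4 numbered 30 to 36 without 1 library and 28 on log2(TPM + 1), and those with their lowest in LAC 21 to 23 and 25.

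DESeq2 called 8 genes for LAC against NUL (4 by edgeR), 5 for ID2 against NUL (3), 5 for ID6 against NUL (3), 8 for ID4 against ID2 (5) and 1 for ID8 against ID6 (0). Limma on log2(TPM + 1) called 9 for LAC against NUL, 1 for ID2 against NUL, 5 for ID6 against NUL, 9 for ID6 against ID4 (16) and 4 for ID8 against ID6. Over all genes DESeq2 called 5.71% for ID2 against NUL (532 genes by edgeR, 863 by DESeq2), 3.11% for ID6 against NUL (178 and 450) and 3.66% for ID4 against ID2 (244 and 518). Without the filter 1 was called for ID2 against NUL (364 of all 26430 genes) and 3 for ID4 against ID2 (204), and with a term for the title number range 3 for ID4 against ID2, 20 for ID4 against NUL, 10 for ID2 against LAC and 11 for ID6 against ID4, while that term left 1.35%, 2.19%, 7.6% and 4.07% of all genes called. With title numbers of 200 and over, which leaves 1 ID2 and 2 ID4 libraries and assumes that the lone one varies like the others, 0 were called for ID2 against NUL (0.0632% of all genes), 10 for ID4 against NUL (21), 1 for ID2 against LAC (13), 0 for ID4 against ID2 and 3 for ID6 against ID4. The cause of these differences was not tested, apart from the fewer samples. Of 2145 recomputed fold changes of 65 called values, 1885 kept their call, 260 lost it and 0 reversed. For each value 27 of these fits left out 1 library, and in 6 to 10 of them it was a library of the groups compared. The rest left out a library of neither group, so the share that kept its call overstates how firm the calls are. The alternative of title numbers of 200 and over and the count of highest stages were added after the data were seen.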
